A study of Mus musculus with 18 samples.

Results

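Described here are 9 genes of the tight junction and of cell adhesion, Cldn3, Cldn4, Cldn7, Cldn23, Ocln, Tjp1, F11r, Cdh1 and Marveld2, taken by symbol from a list whose rule uses no measured value, though the list was drawn up with earlier results of these data known. They are 9 of the 47729 genes in each count table. All 9 passed the filter on low counts, as did 15572 genes overall. The samples were bulk libraries of polyadenylated RNA from epithelial cells sorted out of mouse ileum, the last stretch of the small intestine. There were 6 libraries from females at day 7 of lactation, 6 from virgin females of the same age and 6 from virgin males. No transgene, deletion or drug is given for any group, and neither strain, age in weeks nor sorting gate is given in the sources used here. Per the labels, mice in breeding were kept on the diet RM3, and RM1 was used for maintenance and for the experiment. Which diet the lactating females ate is not spelled out, so lactation and diet cannot be told apart. Libraries of a group are treated as separate samples, but the labels do not say that each came from its own animal, so the p-values cover the spread among these libraries, which may be partly technical.

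Tight junctions are strands of membrane proteins that close the gap between neighbouring epithelial cells near their apical edge and set which ions and small molecules may pass between cells. Claudins form the strands, occludin and tricellulin join them at contacts between cells, junctional adhesion molecules sit beside them, and zonula occludens proteins tie them to the actin cortex from inside. The adherens junction just below is built on E-cadherin. In the small intestine, cells are born in crypts, climb the villus within days and are shed at its tip, and the claudin makeup of the junction is known to change along that path.

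Library totals ran from 34577104 to 49039300 counts. A count of 3, used as the floor of detection, equals 0.0612 to 0.0868 CPM (the count normalised to library size), and covers counting error only. This floor uses the unscaled library total. The CPM of members and listed genes use totals scaled by TMM factors, which ran from 0.814 to 1.15. Xist and Ddx3y followed the labelled sex, with 1 exception of degree: Xist was at 5.85 CPM in virgin male 6 against at most 0.283 CPM in the other virgin males, and at 115 CPM or more in each female library. Virgin female 2 and virgin male 6 also stood apart in Gm42418, an RNA that carries ribosomal sequence, which took 2.89% and 3.35% of their counts against 0.137% to 0.408% elsewhere. Epithelial markers were high (Vil1, a microvillus protein, at 1825 to 4980 CPM). Markers of other cells were low: the 12 leukocyte genes summed to 13.4 to 52.4 CPM (Lyz2 alone at 3.97 to 43.7 CPM), the 8 endothelial genes to 1.15 to 4.95 CPM, and the 10 fibroblast and muscle genes to 4.61 to 13.6 CPM. Ptprc was at most 0.373 CPM, Cdh5 at most 0.0229 CPM, and Emcn and Lum had no count. Other genes of these lists were higher: Itgam at 2.86 to 10.8 CPM, Tie1 at 0.456 to 4.54 CPM and Pdgfrb at 4.45 to 13.3 CPM. Pdgfrb was the only 1 of the 10 fibroblast and muscle genes to pass the filter. The endothelial sum was 1.85 to 4.95 CPM in lactating females and 1.15 to 2.25 CPM in virgin males. Of the 3 endothelial genes that passed the filter, Tie1 had means of 0.457 and 0.147 CPM per kb of exon in these groups. Pecam1 (0.0422 and 0.0409) and Vwf (0.0304 and 0.0339) were nearly level.

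In the genome (GRCm38, GENCODE M21), 4 of the members lie as neighbouring pairs. Cldn4 (chr5:134945119-134946934, minus strand) and Cldn3 (chr5:134986214-134987472, plus strand) are single-exon genes 39.3 kb apart, with 0 annotated genes between them. Ocln (chr13:100496507-100552718) and Marveld2 (chr13:100595957-100616971) both lie on the minus strand, 43.2 kb apart, again with 0 genes between. Cldn7 is at chr11:69964779-69967885 and F11r at chr1:171437535-171464603, both on the plus strand, and Cldn23 is a single-exon gene at chr8:35824712-35826559 on the minus strand. Tjp1 spans chr7:65296165-65527781 on the minus strand with 31 exon blocks that sum to 7811 bases, the longest exon length of the 9. Cdh1 spans chr8:106603351-106670246 on the plus strand. Cldn3 shares 40 exon bases with the antisense gene Wbscr25, whose mean count was 38.7 against 20936 for Cldn3, and the other members share 0 exon bases with any annotated gene.

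The windows of 250 bases just before the start of the 4 neighbouring genes are shown because the members of each pair, described below, differed in how much they varied between libraries. They come from RefSeq's GRCm38.p6 annotation, where 7 of the 9 members had a window. Each is written 5′ to 3′ on the strand of its gene, and capitals mark matches to the motifs searched on both strands. The windows are chr5:134946935-134947184 (Cldn4, minus strand), chr5:134985964-134986213 (Cldn3, plus strand), chr13:100552719-100552968 (Ocln, minus strand) and chr13:100616972-100617221 (Marveld2, minus strand).
Cldn4: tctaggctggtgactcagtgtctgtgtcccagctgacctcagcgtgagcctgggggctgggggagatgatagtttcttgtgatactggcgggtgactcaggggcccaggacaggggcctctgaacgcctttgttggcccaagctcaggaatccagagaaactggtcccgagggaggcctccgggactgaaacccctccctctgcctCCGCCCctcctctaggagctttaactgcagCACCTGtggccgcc
Cldn3: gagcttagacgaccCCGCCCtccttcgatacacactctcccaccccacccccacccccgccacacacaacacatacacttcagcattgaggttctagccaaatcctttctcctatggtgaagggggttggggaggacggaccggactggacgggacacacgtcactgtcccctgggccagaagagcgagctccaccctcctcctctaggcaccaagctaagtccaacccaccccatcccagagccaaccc
Ocln: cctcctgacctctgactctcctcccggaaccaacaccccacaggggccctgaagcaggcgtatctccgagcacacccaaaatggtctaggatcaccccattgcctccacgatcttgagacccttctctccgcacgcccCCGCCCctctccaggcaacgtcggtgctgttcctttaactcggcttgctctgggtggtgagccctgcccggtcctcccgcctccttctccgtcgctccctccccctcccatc
Marveld2: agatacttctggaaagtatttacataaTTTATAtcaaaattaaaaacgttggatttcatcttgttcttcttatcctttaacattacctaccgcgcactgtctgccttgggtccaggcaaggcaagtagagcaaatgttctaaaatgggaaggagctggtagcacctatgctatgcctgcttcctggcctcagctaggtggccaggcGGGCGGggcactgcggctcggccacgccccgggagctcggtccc

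The motifs were the GC box GGGCGG, which 32.7% of the 32851 RefSeq windows of this length hold, the E-box CACCTG (17.2%), the TATA box TATAAA (12.4%), the CDX motif TTTATN (37.2%) and the HNF4 motif CAAAGT (12.6%). TTTATN overlaps the TATA box read on the other strand. Each of the 4 windows held 1 GC box. Cldn4 held 1 E-box beside it, close to the start of the gene. In Marveld2 the TATA box and the CDX match are the same letters. RefSeq has a further start for Ocln, whose window at chr13:100552499-100552748 is not printed and holds 1 GC box and 2 E-boxes, so the E-box is not particular to Cldn4. A further start of Marveld2 has a window with the same motif counts. The printed window of Marveld2 was 50.4% G or C, against 62% for Cldn4, 60.8% for Cldn3, 64% for Ocln and a median of 52.4% over all windows. A match is a description of letters and not a bound site.

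Compared per length of exon, so that long and short genes can be set side by side, the claudins Cldn7 and Cldn3 were the most abundant members. Cldn7, a claudin found both in tight junctions and along the lateral membrane, was at 488 ± 137 CPM per kb (SD, n = 18), and Cldn3, a sealing claudin, at 393 ± 70.1. Cldn7 ranked highest of the 9 in 15 libraries and Cldn3 in the other 3. Next came Cdh1, which encodes E-cadherin, at 181 ± 7.86 CPM per kb. F11r, which encodes the junctional adhesion molecule JAM-A, followed at 91.8 ± 15.6, and Cldn4 at 87.0 ± 64.7. Cldn4 had no fixed place: its rank ran from 3 to 7 among the 9 over the libraries. Ocln (occludin) at 31.3 ± 4.73 and Cldn23 at 30.9 ± 4.71 CPM per kb did not differ beyond their spread. Tjp1, which encodes the scaffold ZO-1, was at 18.8 ± 3.86, and Marveld2, which encodes tricellulin of three-cell contacts, was lowest at 11.3 ± 0.609.

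**Figure D1:**
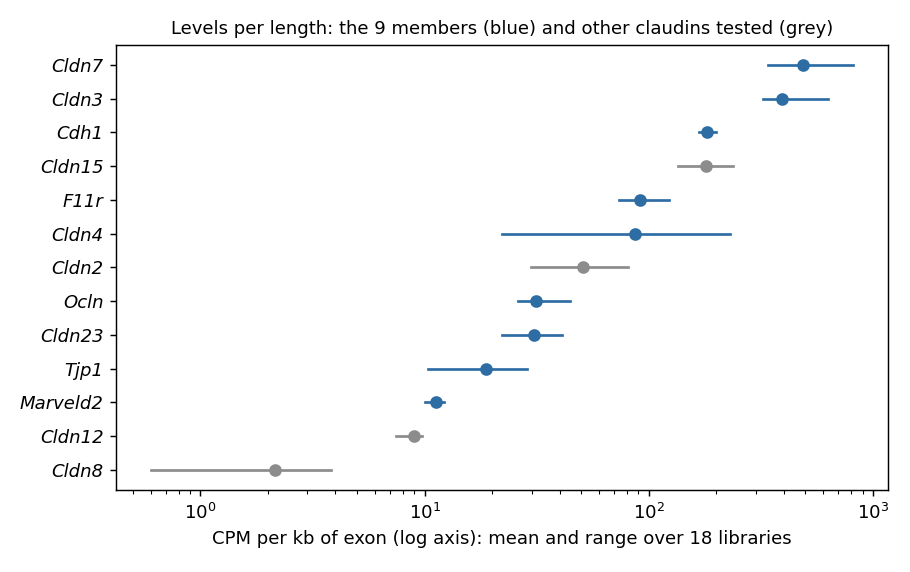
Levels in CPM per kb of exon (log axis) for the 9 members (blue) and the 4 other claudins that passed the filter (grey). Points are means and lines run from the lowest to the highest of 18 libraries. The line of Cldn4 is the longest of the members, from 22.2 to 231 CPM per kb, and that of Cdh1 is short.

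Within the claudin family, 35 genes were in the tables, 8 passed the filter and 10 had no count in any library. The 4 member claudins were joined by Cldn15 and Cldn2, which form cation-permeable pores in the small intestine, at 181 ± 22.8 and 50.9 ± 12.9 CPM per kb. Cldn12 was at 8.95 ± 0.619 and Cldn8 at 2.16 ± 0.860. Of the summed claudin level per length, Cldn7 made up 39.3%, Cldn3 31.6%, Cldn15 14.6% and Cldn4 7.00%. Cldn5, the claudin of blood vessels, had a count in 2 libraries and reached 3 counts in none of them. Cldn18, the claudin of stomach, had a count in 1 library.

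No member passed the test in any comparison of groups. In lactating against virgin females, 0 of 9 members were called by edgeR's quasi-likelihood test at an adjusted p under 0.05, where 0.0578% of all genes (9 of 15572) were. In virgin males against virgin females 0 of 9 were called, against 0.0835% of all genes (13), and in lactating females against virgin males 0 of 9, against 0.764% (119). At an unadjusted p under 0.05 the members' count was also 0 in each, beside 6.44%, 8.32% and 15.9% of all genes. DESeq2 likewise called 0 members, with 1 at an unadjusted p under 0.05 in lactating females against virgin males. Of the members, 6 of 9 had a log2 fold change above 0 in lactating against virgin females (49.4% of all genes), 3 of 9 in virgin males against virgin females (48%) and 6 of 9 in lactating females against virgin males (48.9%). Their median log2 fold changes were 0.09, -0.01 and 0.11, beside -0.00, -0.01 and -0.01 over all genes. Groups overlapped for all 9 members in the 3 comparisons, while 0.289%, 0.43% and 1.34% of all genes had groups that did not overlap. The comparisons share groups and are not independent of each other.

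**Figure D2:**
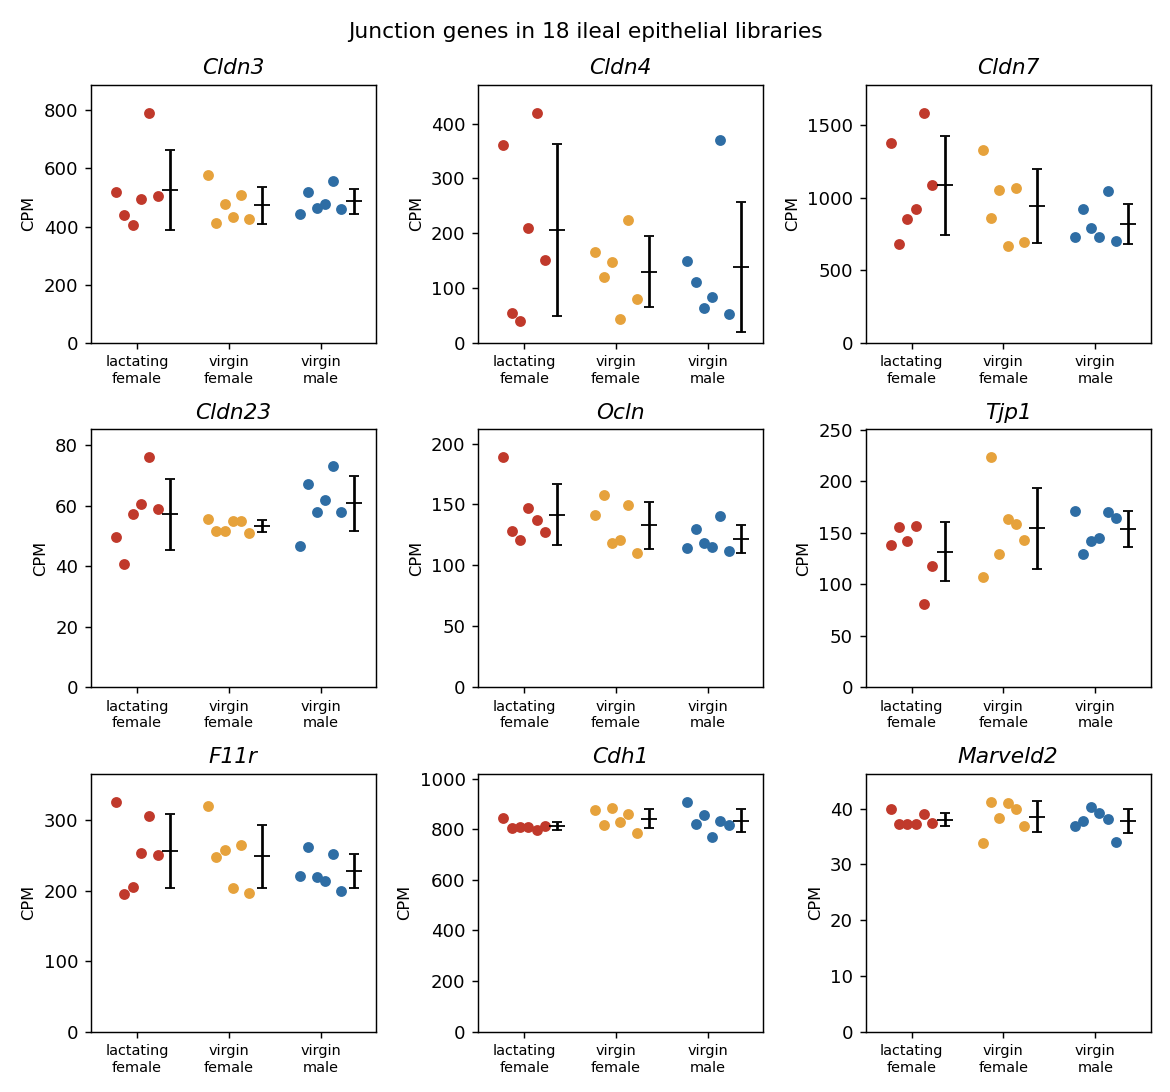
CPM of each member in each of the 18 libraries, by group, on linear axes from 0. Points are libraries in order of their replicate number, and the black mark and bar are the group's mean ± SD (n = 6). Groups overlap in every panel, Cldn4 spreads widely within each group and Cdh1 and Marveld2 are nearly level.

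Among the claudins, Cldn4 ranged from 40.2 to 420 CPM in lactating females, with a median of 180. It ranged from 43.4 to 224 in virgin females (median 134) and from 52.7 to 370 in virgin males (median 97.0). The highest library of each group was 10.4, 5.15 and 7.02 times its lowest, in the same order of groups, and 2 lactating libraries, 1 and 5, were above all virgin females. Lactating against virgin females gave a log2 fold change of 0.66 (SE 0.56, 95% interval -0.50 to 1.83, adjusted p = 0.923), an interval that includes both lower and higher levels. Virgin males against virgin females gave 0.09 (SE 0.56, adjusted p = 0.959).

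Cldn7 was between 682 and 1589 CPM in lactating females (median 1005), between 667 and 1331 in virgin females (median 959) and between 702 and 1049 in virgin males (median 760). Lactating libraries were above the virgin male mean in 5 of 6 cases, and 3 were above all virgin males. The log2 fold change against virgin males was 0.40 (SE 0.21, 95% interval -0.03 to 0.84, adjusted p = 0.340), and against virgin females 0.20 (SE 0.21, adjusted p = 0.935). With the cell cycle score described below as a covariate, the difference from virgin males was 0.107.

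Cldn3 was between 406 and 792 CPM in lactating females (median 500), between 413 and 579 in virgin females (median 454) and between 442 and 557 in virgin males (median 472). The highest value was that of lactating female 5, well above the other lactating libraries, which reached at most 518 CPM. Lactating against virgin females gave a log2 fold change of 0.15 (SE 0.14, adjusted p = 0.929), which came to -7.57e-05 without lactating female 5.

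Cldn23, a single-exon claudin, was even among virgin females, at 50.9 to 55.6 CPM (mean 53.3 ± 2.07, SD, n = 6). It was less even in the other groups, at 57.1 ± 11.8 in lactating females and 60.7 ± 9.05 in virgin males. In virgin males 5 of 6 libraries were above all virgin females and the other was below all of them. In lactating females 4 were above and 2 below. The log2 fold changes were 0.10 (SE 0.12, adjusted p = 0.951) for lactating and 0.19 (SE 0.12, adjusted p = 0.573) for virgin males, each against virgin females.

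Occludin and tricellulin belong to 1 family of 4-pass membrane proteins. Ocln was between 121 and 189 CPM in lactating females (median 133), between 110 and 158 in virgin females (median 131) and between 112 and 141 in virgin males (median 117). Lactating female 1 held the highest value, and 5 of 6 lactating libraries were above the virgin male mean. Lactating females against virgin males gave a log2 fold change of 0.22 (SE 0.12, 95% interval -0.03 to 0.46, adjusted p = 0.361), and lactating against virgin females 0.09 (SE 0.12, adjusted p = 0.957). Marveld2 was far more even, at 38.5 ± 2.81 CPM in virgin females, 38.0 ± 1.14 in lactating females and 37.8 ± 2.20 in virgin males (SD, n = 6 each). Its 95% interval for lactating against virgin females ran from -0.16 to 0.12 on the log2 scale.

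F11r was between 196 and 327 CPM in lactating females, between 197 and 321 in virgin females and between 200 and 263 in virgin males, with medians of 252, 253 and 221. The log2 fold change was 0.04 (SE 0.14, adjusted p = 0.985) for lactating against virgin females and 0.17 (SE 0.14, adjusted p = 0.534) for lactating females against virgin males. The highest library of each female group was its replicate 1, and the groups overlapped throughout.

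Tjp1 was between 80.8 and 157 CPM in lactating females (median 140), between 107 and 224 in virgin females (median 151) and between 130 and 171 in virgin males (median 155). Lactating female 5 held the lowest value and virgin female 2 the highest, so that the 18 libraries spanned a ratio of 2.77. The log2 fold change was -0.23 (SE 0.17, adjusted p = 0.912) for lactating against virgin females and -0.22 (SE 0.17, adjusted p = 0.486) against virgin males.

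Cdh1 had the tightest values of the 9. It was between 798 and 844 CPM in lactating females, between 787 and 883 in virgin females and between 769 and 909 in virgin males, and its coefficient of variation over all 18 libraries was 4.33%, against 74.3% for Cldn4. Lactating against virgin females gave a log2 fold change of -0.05 (SE 0.08, 95% interval -0.23 to 0.13, adjusted p = 0.967). Virgin males against virgin females gave -0.01 (SE 0.08, adjusted p = 0.959). None of the 6 repressors of Cdh1 that were listed passed the filter. Snai1 reached at most 0.231 CPM, Zeb1 and Zeb2 at most 0.0801 CPM, Twist1 at most 0.0586 CPM, and Snai2 and Twist2 had no count in any of the 18 libraries.

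The spread of Cdh1 within groups, as the SD of log2 CPM around the group means, was 0.0617. This was rank 2 from the lowest among the 15572 genes tested, whose median was 0.323, and the lowest of the 250 genes within 1 log2 unit of its mean level, whose median was 0.318. Marveld2 had an SD of 0.0833, rank 58 overall and rank 35 of the 4222 genes of like level. Cldn4 lay at the other end with 1.11, rank 15265 overall and rank 2312 of 2325 genes of like level. Ocln (0.196), Cldn23 (0.218), Cldn3 (0.232), F11r (0.243), Tjp1 (0.308) and Cldn7 (0.370) were between. Under other scaling and with libraries left out, the rank of Cdh1 ran from 1 to 13 and that of Marveld2 from 20 to 119.

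**Figure D3:**
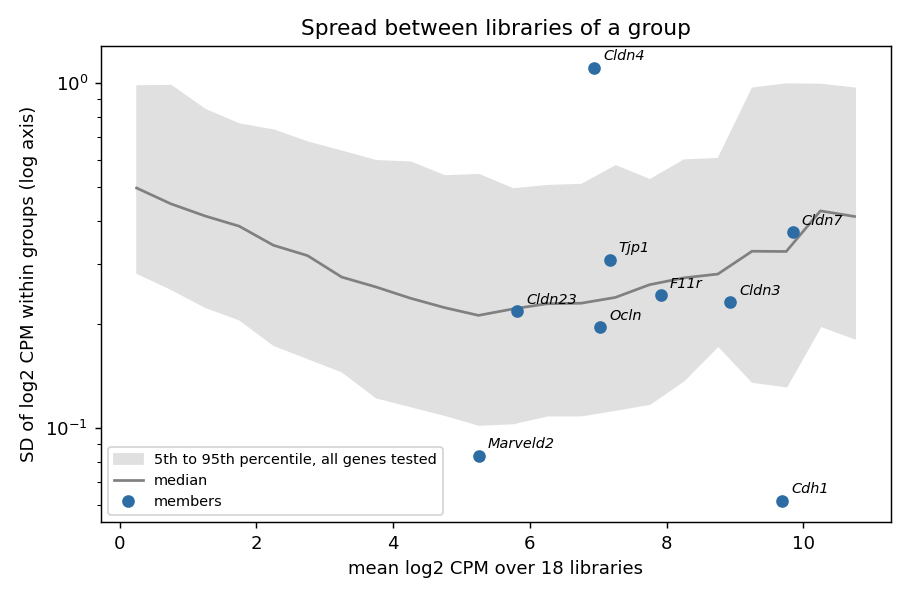
SD of log2 CPM within groups (log axis) against mean log2 CPM over 18 libraries. The grey band is the range from the 5th to the 95th percentile of all genes tested in bins of level and the line is their median. Cdh1 and Marveld2 lie below the band and Cldn4 above it.

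Libraries of the same group differed in scores of crypt and villus tip genes. On each score 5 of the 9 members were called, beside 44% of all genes on the crypt side and 28.5% on the villus tip side. A cell cycle score (mean log2 CPM of 35 genes of dividing cells, which sit in crypts) ran from 3.50 to 5.21 in lactating females, from 3.57 to 5.14 in virgin females and from 4.63 to 5.08 in virgin males. A villus tip score was made in the same way from 10 genes of the villus tip, such as Ada, Nt5e and Apoa4. Not all 10 moved alike: 8 were called lower as the cell cycle score rose, and 1 had a slope above 0 (0.0980) that was not called. The 2 scores went against each other within groups (Pearson r = -0.777, permutation p = 0.00019; Spearman rho = -0.796, permutation p = 0.0003; 18 libraries; r = -0.789 without the 2 farthest libraries). Within groups r was -0.940, -0.871 and -0.454 in lactating females, virgin females and virgin males. No member is in either score. In bulk libraries such as these, fewer cells of a type and less RNA per cell cannot be told apart.

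As the cell cycle score rose within groups, Cldn4, Cldn7, F11r, Ocln and Cldn3 fell (edgeR, adjusted over all genes). That is 5 of 9 members called, beside 44% of all genes, and 5 of 9 in the lower direction, beside 22.1% of all genes. The slope, in log2 units of the gene per unit of score, was steepest for Cldn4 at -1.75 (SE 0.39, adjusted p = 0.00155). It was -0.66 for Cldn7 (SE 0.10, adjusted p = 5.23e-05), -0.46 for F11r (SE 0.06, adjusted p = 1.17e-05), -0.30 for Ocln (SE 0.07, adjusted p = 0.00226) and -0.30 for Cldn3 (SE 0.10, adjusted p = 0.0234). The median slope of the 9 was -0.30, and that of all genes -0.00, with 2 of 9 members above 0 beside 49.7% of genes.

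The remaining members gave slopes near 0 or with wide intervals. Marveld2 was at 0.01 (95% interval -0.11 to 0.12, adjusted p = 0.945) and Cdh1 at -0.05 (-0.17 to 0.08, adjusted p = 0.540). The slopes fitted for Ocln and Cldn3 lie outside these intervals. Their own intervals, -0.45 to -0.15 for Ocln and -0.51 to -0.09 for Cldn3, overlap that of Cdh1, and that of Cldn3 also overlaps that of Marveld2. These overlaps are no test of a difference between members. Cldn23 was at -0.14 (-0.36 to 0.09, adjusted p = 0.324) and Tjp1 at 0.15 (-0.15 to 0.46, adjusted p = 0.409). The call of Cldn3 was lost without lactating female 2 (adjusted p = 0.0583), without virgin female 1 (adjusted p = 0.0714) or with no filter on low counts (adjusted p = 0.0622), and those of Cldn4, Cldn7, F11r and Ocln held with each library left out in turn. With the replicate number as a block in the model, the call of Cldn3 was lost too (adjusted p = 0.168), and those of Cldn4, Cldn7, F11r and Ocln were kept.

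On the villus tip score the same 5 members rose, beside 28.5% of all genes called in either direction and 14.9% in the higher direction. Cldn4 had a slope of 1.44 (SE 0.13, adjusted p = 1.92e-06), Cldn7 of 0.40 (SE 0.08, adjusted p = 0.00274) and F11r of 0.29 (SE 0.05, adjusted p = 0.00153). Cldn3 followed at 0.21 (SE 0.07, adjusted p = 0.0380) and Ocln at 0.19 (SE 0.05, adjusted p = 0.0128). The slope of Cldn4 lay above those of 99.8% of genes, and 8 of 9 members were above 0 beside 48.3% of genes (median slope 0.19, against -0.01 over all genes). With the replicate number as a block in the model, only Cldn4 of the members stayed called on this score. Adjusted p was then 0.146 for F11r, 0.167 for Cldn7, 0.344 for Ocln and 0.547 for Cldn3. The genes called fell from 4439 to 171. The call of Ocln was also lost without lactating female 1 (adjusted p = 0.0697). That of Cldn3 was lost without any of 8 libraries (lactating females 2, 3 and 5, virgin females 4, 5 and 6, virgin males 2 and 5), with adjusted p from 0.0511 to 0.0972, and also with no filter (0.0817) or with ranks in place of the score (0.10). Both scores come from the same 18 libraries and are not independent of each other.

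**Figure D4:**
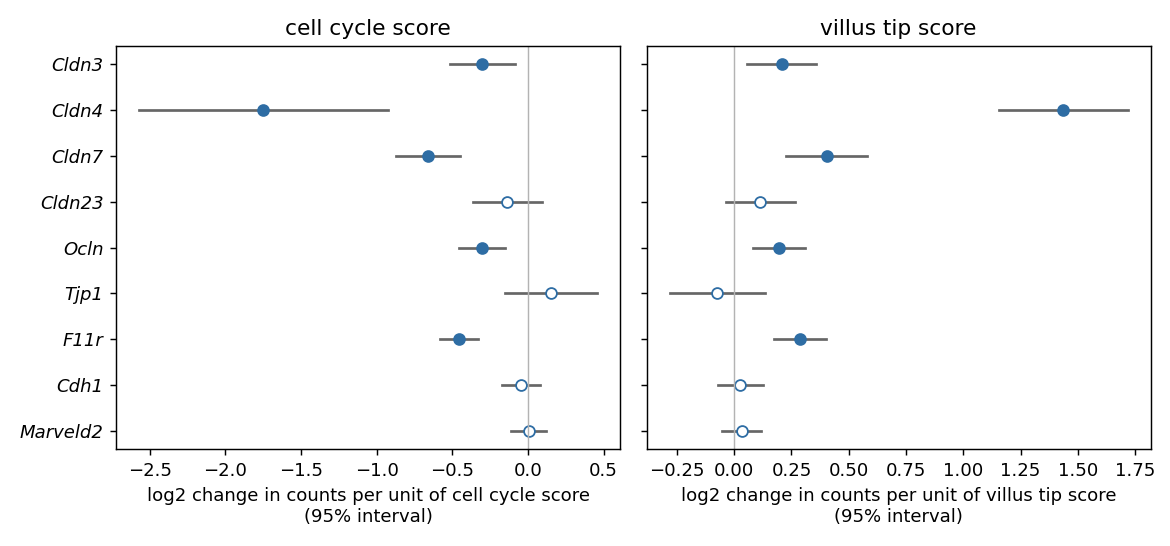
Slopes of the 9 members on the cell cycle score (left) and the villus tip score (right), in log2 units per unit of score, with 95% intervals. Filled points passed an adjusted p under 0.05 over all genes. Cldn4 has the steepest slope in both panels, -1.75 and 1.44, and Cdh1 and Marveld2 are close to 0.

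The difference of slopes on the cell cycle score between groups, tested as an interaction, passed for no member (unadjusted p from 0.284 to 0.965), and 0 of all 15572 genes were called (0%). For Cldn4 the group slopes were -1.17 in virgin females, -2.02 in lactating females and -3.68 in virgin males, whose scores covered the narrowest range. F11r had slopes of -0.42, -0.47 and -0.66 in the same order. The sign was the same in the 3 groups for each of the 5 called members.

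**Figure D5:**
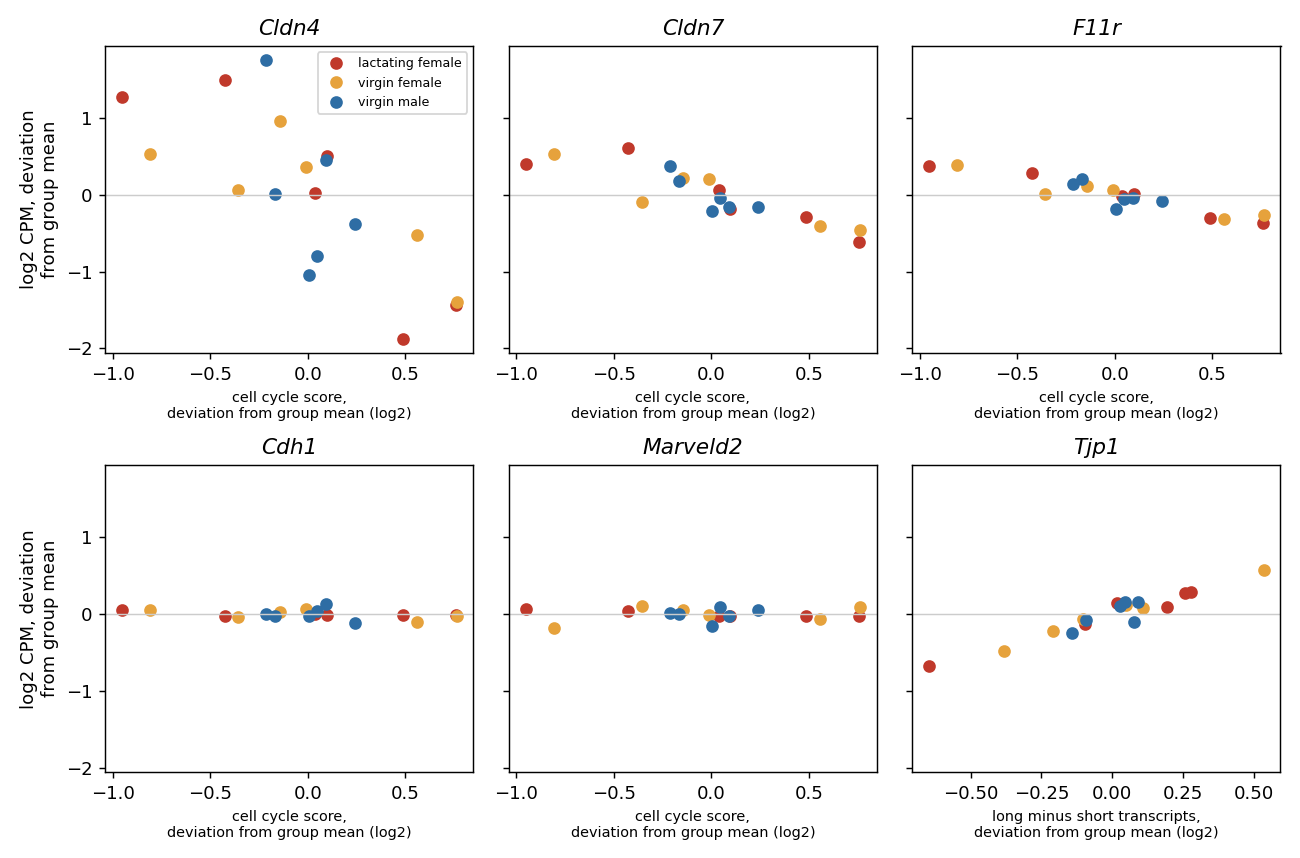
Deviation of log2 CPM from the group mean in each of 18 libraries, on 1 shared vertical scale. Cldn4, Cldn7, F11r, Cdh1 and Marveld2 are set against the cell cycle score and Tjp1 against the balance of long and short transcripts, each as its deviation from the group mean. Cldn4, Cldn7 and F11r go down from left to right, Cdh1 and Marveld2 stay level, and Tjp1 goes up.

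Members that followed the score also moved with each other. Of the 36 pairs of members, 10 passed an adjusted p under 0.05 over 18 libraries by a permutation within groups, 9 of them positive and 1 negative. The share of all gene pairs that would pass was not computed. With 44% of all genes called on the cell cycle score, such pairs need not be particular to the members. The closest pair was Cldn7 and F11r (r = 0.943, rho = 0.936, permutation p = 2e-05 for both, adjusted p = 0.00072 for both; r = 0.931 without the 2 farthest libraries). It held in lactating females, virgin females and virgin males at r = 0.933, 0.975 and 0.888. Cldn3 with Cldn7 gave r = 0.839 (rho = 0.880), Cldn4 with F11r 0.833 (rho = 0.853) and Cldn4 with Cldn7 0.823 (rho = 0.829). Cldn3 also went with F11r (0.752, rho = 0.837) and with Cldn4 (0.731, rho = 0.761). Ocln went with F11r at 0.723 (rho = 0.742) and with Cldn4 at 0.655 (rho = 0.682). These pairs had permutation p-values of r from 4e-05 to 0.00513 (adjusted 0.00072 to 0.0205), and r from 0.567 to 0.843 without the 2 farthest libraries. Ocln did not pass by permutation with Cldn7 (r = 0.570, adjusted p = 0.0983) or with Cldn3 (r = 0.313, adjusted p = 0.445). Cldn23 passed with Cldn3 alone (r = 0.684, rho = 0.657, permutation p = 0.00992 and 0.00498, adjusted p = 0.0357 and 0.0199), with r = 0.535 without the 2 farthest libraries. The negative pair was Cldn3 and Tjp1 (r = -0.748, rho = -0.653, permutation p = 0.00365 and 0.00777, adjusted p = 0.0164 and 0.0280). Its r came to -0.402 without the 2 libraries farthest in Cldn3, so its size depends on them. Within lactating females, virgin females and virgin males r was -0.890, -0.759 and -0.130.

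Within each neighbouring pair, 1 gene followed the score more steeply than the other. The log2 ratio of Cldn4 to Cldn3 fell as the cell cycle score rose (r = -0.723, rho = -0.707, permutation p = 0.00084 and 0.00254, 18 libraries, 2 relations tested with the same adjusted values), with r = -0.744 without the 2 farthest libraries. The ratio of Ocln to Marveld2 also fell (r = -0.824, rho = -0.781, permutation p = 0.00013 and 0.00054, adjusted p = 0.00026 and 0.00108), with r = -0.673 without those 2. Within lactating females, virgin females and virgin males r was -0.904, -0.740 and -0.492 for the claudin pair and -0.759, -0.922 and -0.914 for the occludin pair. These pairs were picked by position after the values were seen. The ratios largely restate slopes given above from the same 18 libraries and are no separate support. Those slopes were -1.75 for Cldn4, -0.30 for Cldn3, -0.30 for Ocln and 0.01 for Marveld2.

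Tjp1, which has the longest exon sequence of the members, varied with the balance of long and short transcripts in a library. This balance, added after the data were seen, is the median deviation of 2935 genes over 6 kb of exon from their own means minus that of 928 genes under 1.5 kb, in log2 CPM, with members and genes at a mean log2 CPM of 3 or less left out. It was lowest in lactating female 5 at -0.726 and highest in virgin female 2 at 0.597, the libraries with the lowest and highest Tjp1. Over 18 libraries r was 0.961 and rho 0.847 (permutation p = 1e-05, the smallest that 100000 permutations can give, and 6e-05; adjusted over 9 members p = 9e-05 and 0.00054). Without the 2 farthest libraries r was 0.913, and within lactating females, virgin females and virgin males it was 0.978, 0.990 and 0.731. None of the other 8 members passed, with Cldn3 closest at r = -0.718 (rho = -0.482, permutation p = 0.0111 and 0.0759, adjusted p = 0.0501 and 0.247; -0.459 without the 2 farthest). Tjp1, at 7811 bases of exon, is the only member over 6 kb. The share of long genes that would pass in the same way was not computed, so the relation need not be particular to Tjp1.

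With the balance as a covariate, the log2 fold change of Tjp1 for lactating against virgin females was -0.0724 (SE 0.07, adjusted p = 0.970), where it had been -0.23. Between the balance and the cell cycle score r was 0.194 and rho 0.172 (permutation p = 0.549 and 0.554, adjusted over 3 relations p = 0.646 and 0.832). With it in the model the same 5 members were called on both scores. The 3 genes whose deviations were most like those of Tjp1 over the 18 libraries were Phc3 (r = 0.986), Ep300 (0.977) and Setd2 (0.976).

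For the other members the genes most alike, out of all tested genes with a symbol and by Pearson r over 18 libraries, were as follows. Cldn7 was closest to Tnfaip8l2 (0.991), Sdcbp2 (0.986) and Crb3 (0.986). F11r was closest to Itm2b (0.982), Chmp2b (0.974) and Abhd5 (0.974). Cldn4 was closest to Bmp8a (0.972), Bmp8b (0.963) and Apol9b (0.956), of which Bmp8a and Bmp8b are near copies whose reads may be split between them. For Ocln, Nbr1 (0.947) and Ezh1 (0.939) were among the closest. Cldn3 was closest to Borcs8 (0.933), Frg1 (0.922) and Rnf166 (0.920). The members with little spread or with no slope had looser neighbours: Marveld2 with Zfp433 (0.877), Insig1 (0.775) and Jrkl (0.744), Cldn23 with Fdps (0.838), Gon7 (0.765) and Zc3h10 (0.759), and Cdh1 with Topaz1 (0.821, at a mean of 0.263 CPM), Drc1 (0.798) and Mta3 (0.756). Highest values out of so many genes are a description and carry no p.

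The wider junction lists had 105 genes that passed the filter, and in the comparisons of groups 1 of them was called. That call was in lactating females against virgin males, where 0.764% of all genes were called, so 1 of 105 is near the background and says nothing about the lists as a whole. Marveld3, the third member of the occludin family, was higher in lactating females than in virgin males (log2 fold change 0.68, SE 0.15, adjusted p = 0.0353), at 21.3 against 13.3 CPM per kb. It was 0.49 on the same scale against virgin females (adjusted p = 0.447). Its call was lost without virgin female 2 and virgin male 6 together (adjusted p = 0.0957) and without any of 8 single libraries (lactating females 1, 5 and 6, virgin males 1, 2, 3, 4 and 6), with adjusted p from 0.0662 to 0.106. The pore claudin Cldn2 was at 64.4, 42.7 and 45.7 CPM per kb in lactating females, virgin females and virgin males, a log2 fold change of 0.59 for lactating against virgin females that did not pass (SE 0.15, adjusted p = 0.262) but did with DESeq2 (adjusted p = 0.0345) or with the cell cycle score as a covariate (adjusted p = 0.0484). The polarity scaffold Mpp5 gave 0.72 for lactating females against virgin males (SE 0.17, adjusted p = 0.0529). It passed without lactating female 2 (adjusted p = 0.0154), lactating female 3 (0.0423) or virgin female 4 (0.0422), with DESeq2 (0.00554), with no filter (0.0467) and with the cell cycle score as a covariate (0.0314), where its log2 fold change was 0.479.

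On the cell cycle score, where 21.9% of all genes were called higher and 22.1% lower, the lists gave different counts. Of 7 other tight junction membrane proteins 0 were higher and 4 lower: Igsf5 (JAM4) at -0.59, Marveld3 at -0.34, Cxadr at -0.29 and Lsr at -0.23. Of 5 genes of the EpCAM and matriptase system, which governs claudin turnover at the lateral membrane, 4 were lower: Epcam at -0.58, its protease St14 at -0.44, and the protease inhibitors Spint1 at -0.56 and Spint2 at -0.41. Of 9 desmosome genes 0 were higher and 4 lower, among them Perp at -0.46 and the plakophilin Pkp3 at -0.42.

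Other lists held genes of both directions. Among 4 other claudins, Cldn2 rose at 0.32 (adjusted p = 0.0244) while Cldn15 fell at -0.23 (adjusted p = 0.0282). Of 24 scaffold and polarity genes 4 rose, among them Ybx3 (0.61) and Amot (0.77), and 8 fell, among them Prkcz (-0.38) and Crb3 (-0.49). In the adherens junction list, 1 of 15 rose, the nectin Nectin1 (0.68), and 7 fell, among them Lmo7 (-0.61), the alpha-catenin gene Ctnna1 (-0.32) and the plakoglobin gene Jup (-0.29).

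Of 15 actomyosin genes 2 rose, Ect2 (0.91) and Anln (1.08), both of which act in cell division, and 9 fell, among them Arhgef2 (-0.40) and Actn4 (-0.44). Of 10 integrin and laminin genes 2 rose, among them Itga2 (0.75), and 4 fell, among them Lamb3 (-1.16). The 16 epithelial transcription and splicing factors leaned the other way, with 6 higher and 2 lower. Grhl2 (0.69), Ehf (0.54) and the splicing factor Esrp1 (0.40) rose, and Klf4 (-0.84), which is itself in the villus tip score, fell. Calls of Lsr, Cldn15, Cldn2 and Marveld3 on this score were lost without lactating female 2 (adjusted p = 0.0800, 0.0673, 0.0796 and 0.0631) and without virgin female 1 (0.102, 0.157, 0.0656 and 0.0560). Those of Lsr, Cldn15 and Cldn2 were also lost without virgin female 4 (0.0571, 0.0684 and 0.0787), that of Lsr without lactating female 3 (0.0529) and that of Cldn15 without lactating female 4 (0.0514). With no filter those of Lsr (0.0910) and Cldn15 (0.102) were lost, and with ranks in place of the score that of Lsr (0.0652). With the replicate number as a block in the model, calls of Lsr, Cldn15, Cldn2 and Marveld3 were lost. So were those of Jup (adjusted p = 0.0523), Ctnna1 (0.0800) and Spint2 (0.0966).

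On the villus tip score, where 14.9% of all genes were called higher and 13.7% lower, most lists gave more higher than lower calls. Higher and lower calls were 2 and 0 of 7 other membrane proteins, 6 and 3 of 24 scaffold and polarity genes, 6 and 1 of 15 adherens junction genes, 3 and 0 of 9 desmosome genes and 4 and 0 of 5 genes of the EpCAM and matriptase system. They were 3 and 3 of 15 actomyosin genes, 1 and 1 of 10 integrin and laminin genes, 2 and 4 of 16 transcription and splicing factors and 0 and 0 of 4 other claudins. Crb3, the polarity protein whose deviations were also among the 3 closest to those of Cldn7, rose at 0.30 (SE 0.06, adjusted p = 0.00292). With the replicate number as a block in the model, the genes called on this score fell from 4439 to 171. Calls of Pard6b, Igsf5, Epcam, Lamb3 and Nectin1 were then lost, and that of Mpp5 was kept. The call of Crb3 on this score was not recomputed.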

How the data were processed

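RNA from sorted ileal epithelium was measured in 18 libraries; per the labels' protocols, the kit selected poly(A) RNA and kept strand. The deposited values are whole-number read counts per Ensembl gene, 1 table per library, and are not normalised. Per the submitters' processing notes, the authors used FastQC 0.11.5, HISAT2 2.0.4, featureCounts of Subread 2.0.0 and DESeq2 1.24.0 with build GRCm38. Which annotation was counted, whether by strand, and how reads with several matches were handled is not given in the sources used here. Symbols and exon lengths came from GENCODE M21, in which 47310 of 47729 identifiers were found, and 0 rows name no gene. No pair of libraries agreed within sampling noise (lowest chi-square per degree of freedom 66.4 within groups and 35.6 between), so 18 samples were counted.

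Counts were filtered with filterByExpr, scaled by TMM and fitted with edgeR 4.0.16 (R 4.3.3, quasi-likelihood test) with a mean per group over all 18 libraries. P-values were adjusted by Benjamini-Hochberg over 15572 genes and called under 0.05. Any adjusted p of a gene is from this edgeR fit where no other tool is named. The SE is the absolute log2 value over the square root of F. Slopes were fitted with group and the library's score, centred within its group, as terms. Scores use log2 CPM with a prior count of 2. Correlations use deviations from group means and 100000 two-sided permutations within groups (numpy 2.4.6). The fits were first tested on simulated data with known changes.

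Members and lists were chosen with earlier results of these data known. Named genes are all members, up to 4 tested genes of each junction list by smallest p in each comparison or slope, and the 3 genes most like each member, of which 1 is not reported here. Alternatives were RLE scaling, no filter, DESeq2 1.42.0, the replicate number as a block, leaving out libraries, only the compared groups, score covariates and ranks, and, added after the data were seen, the transcript length balance as a covariate and the rank of the spread under other scalings and libraries. Protein sequences were not used here.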

Additional observations from a re-analysis of the deposited data

Results flagged for a closer look

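Of the 27 sets of 6 libraries looked at (9 members in 3 groups), 2 had a library that stood apart from the others of its group by Dixon's test, and chance alone gives about 1 in 20. Cldn3 in lactating female 5 was at 792 CPM, against at most 518 CPM in the other lactating females. That library also had the lowest balance of long and short transcripts (-0.726), the lowest Tjp1 (80.8 CPM) and the highest Cldn4, Cldn7 and Cldn23 (420, 1589 and 76.0 CPM). Over all 18 libraries, Cldn3 did not pass with the balance (r = -0.718, adjusted permutation p = 0.0501). Whether the balance had a part in this 1 value of Cldn3 was not tested. Cdh1 in lactating female 1 was at 844 CPM, where the other lactating females lay between 798 and 813 CPM. It stood apart because those 5 were so close together, and it lies within the range of both virgin groups.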

How the results depend on the processing

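Of 1152 member values recomputed, 1085 kept their direction and side of the threshold, 19 lost their call and 48 changed sign, each of the last group for a value that had not been called. In the 3 comparisons of groups 0 members were called under all 26 alternatives. On the slopes 5 members stayed called under every alternative except no filter (4), the replicate block (4 on the cell cycle slope), ranks of the villus tip score (4) and single libraries left out (4 to 5). Whether the replicate numbers pair the libraries could not be settled. Of 18 same-numbered pairs 7 had a correlation of deviations over 0.1 (range -0.219 to 0.477), and 3 were best with their own number. Such correlations cannot exclude a batch shared by number. With the replicate block, the genes called were 1 (lactating against virgin females), 3499 (cell cycle slope) and 171 (villus tip slope, with 1 member, Cldn4), against 9, 6844 and 4439, and Cldn4 gave -0.165 and Tjp1 0.0269 for virgin males against virgin females, and Cdh1 0.0116 and Marveld2 -0.0198 on the cell cycle slope. Calls not made with the block were, on the cell cycle slope, those of Cldn3 (adjusted p = 0.168), Jup (0.0523), Ctnna1 (0.0800), Marveld3 (0.0811), Spint2 (0.0966), Cldn15 (0.170), Cldn2 (0.221) and Lsr (0.241). On the villus tip slope they were those of F11r (0.146), Cldn7 (0.167), Ocln (0.344), Cldn3 (0.547), Lamb3 (0.112), Pard6b (0.117), Igsf5 (0.147), Nectin1 (0.179) and Epcam (0.180). Mpp5 passed with it for lactating females against virgin males (0.0384).

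Counts over all genes moved more. For lactating against virgin females they were 69 with DESeq2, 61 with the cell cycle score, 5 with the length balance, 1 without the libraries high in Gm42418 and 1 with the compared groups alone. For virgin males against virgin females they were 20 without a filter and 30 with DESeq2, against 13. For lactating females against virgin males they were 410 with DESeq2 and 61 without the libraries high in Gm42418, against 119. With single libraries left out they ran from 2 (without lactating 1 or virgin female 1, 2 or 3) to 16 (without lactating 3) for lactating against virgin females, where all libraries except lactating 2, 4 and 5 and virgin male 5 moved the count by over 1.5 times. They ran from 10 to 18 for virgin males against virgin females. For lactating females against virgin males they were 311 without lactating 2, 73 without lactating 1, 71 without lactating 6, and 68, 69, 76, 65 and 62 without virgin male 1, 2, 3, 4 and 6. They ran from 5641 to 7264 on the cell cycle slope and from 2789 (without lactating 2) to 4996 on the villus tip slope, where leaving out lactating 1 (2937) or virgin female 4 (2896) also lowered the count.

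Signs changed as follows. Without the libraries high in Gm42418, Marveld2 gave 0.000701, 0.0194 and -0.0187 in the 3 comparisons and Tjp1 0.111 for males against virgin females. With the cell cycle score, males against virgin females gave Cldn7 0.123, Ocln 0.0160, F11r 0.0999 and Cdh1 0.00852, and lactating females against males gave Cldn3 -0.0160, Cldn4 -0.365 and F11r -0.0331. With the compared groups alone, males against virgin females gave Tjp1 0.0124 and Cdh1 0.00286. With the length balance Tjp1 gave 0.0912 there, F11r -0.000556 for lactating against virgin females and Marveld2 -0.00370 on the cell cycle slope, which was -0.00695 with RLE and -0.00679 with DESeq2. By rank, Tjp1 gave 0.000744 on the villus tip slope. With single libraries left out, lactating against virgin females ran for Ocln from -0.0101 to 0.144, F11r from -0.0399 to 0.127, Cldn3 from -7.57e-05 to 0.220, Cldn23 from -0.000627 to 0.178 and Marveld2 from -0.0546 to 8.19e-05. Males against virgin females ran for Tjp1 from -0.0895 to 0.131, Cldn4 from -0.501 to 0.313, Cdh1 from -0.0402 to 0.00801 and Cldn3 from -0.00176 to 0.107. Lactating females against males ran for Marveld2 from -0.0193 to 0.0294 and Cldn3 from -0.0412 to 0.176, and the cell cycle slope of Marveld2 from -0.0480 to 0.0378. The cause of these shifts was not tested. Depth did not limit the members, whose lowest count in a library was 1212 (Marveld2).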
